A study of Mus musculus with 16 samples.

Results

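Translation factors and aminoacyl-tRNA synthetases were compared between kidney and liver of the mouse. The genes were taken by name: symbols that begin with Eif or Eef, and symbols of synthetases (a capital letter followed by ars, with or without a final 1 or 2, and Eprs). On arrays with 20419 probes, 80 probes with a single gene symbol met this rule and gave 72 genes, which is 0.745% of the 9669 genes named by such probes. They comprised 39 initiation factors and their regulators, 11 elongation factors and their regulators, and 22 tRNA synthetases. A single probe measured 65 of the genes, and the probes of the other 7 were averaged.

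All animals were male wildtype mice of the inbred strain C3HeB/FeJ, 105 ± 5 days old, kept free of specified pathogens, without treatment or engineered allele. On each of 16 cDNA arrays with 2 colours, RNA from an organ of mouse 1, 2 or 3 competed with a pool of the opposite organ from 5 animals. Left kidneys were set against the liver pool on 7 arrays (3, 3 and 1 for mice 1, 2 and 3), and dorsal liver lobes were set against the kidney pool on 9 arrays (3 per mouse). Whether the 3 mice were among the pooled animals is not given in the sources used here. Repeat arrays of a mouse and organ carry the same RNA and were averaged, so each gene had up to 6 averages, 3 per kind of array.

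Translation begins when eIF2 brings the initiator tRNA to the small ribosomal subunit, eIF3 and eIF1A hold the complex ready for scanning, and eIF4 factors recruit it to the cap of the mRNA. Elongation factor eEF1A then delivers each aminoacyl-tRNA and eEF2 moves the ribosome along. The synthetases attach amino acids to their tRNAs, with separate sets of genes for cytosol and mitochondria, and several of the cytosolic enzymes sit together in the multisynthetase complex. Control acts through phosphorylation of eIF2, through proteins that sequester the cap-binding factor eIF4E, and through eEF2 kinase. The liver makes much protein for export, as the main source of plasma proteins, while the kidney spends most of its energy on tubular sodium transport.

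Signed values are given as log2 of kidney over liver, unless a fold is named. They are ratios between organs, not levels, so values of different genes do not compare their abundance. The direction was set from organ markers, since titles put the single mouse first while the values run as pool over single mouse. Read in title order, every kidney and liver below would be exchanged, with sizes and tests unchanged. On this reading, 10 of 10 hepatocyte markers were called higher in liver (median -7.25), and 8 of 8 proximal tubule markers (median 5.16) and 4 of 4 markers of distal nephron and collecting duct (median 3.57) were called higher in kidney. Of 8 tested blood and immune markers, 3 were higher in liver (C1qa, Tyrobp and Clec4f). The glomerular list (3 genes) had Podxl and Synpo on the kidney side and Ehd3 on the liver side, and the bile duct list had 1 of 4 higher in liver (Sox9). Among 4 endothelial and stromal markers 0 were called. Calls in the immune, glomerular, bile duct and stromal lists changed with treatments of the data described below. With mouse 2 aligned by signal, C1qb, Cd79a, Krt7, Col1a1, Col3a1 and Acta2 were also called, all higher in kidney. In that setting 37.5% of all genes were called, against 14.2% as deposited. With the mouse as a replicate block, the calls of C1qa, Ehd3 and Sox9 were lost. In whole organs, a difference in the number of cells of a type and a difference in RNA per cell cannot be told apart, and the part of cell mixture in the results below was not tested.

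The 6 arrays of mouse 2 stood apart. Their median over all probes lay between -1.49 and -1.19 on kidney arrays and between -1.35 and -1.32 on liver arrays, while the 10 arrays of mice 1 and 3 had medians within 0.00267 of 0. The shift was larger where a larger share of a probe's values recur exactly on their array. This share was taken as a sign of low signal, since it is high where intensities are small whole numbers. Signal itself was not measured. This share is read from the ratios themselves, and a ratio far from most others also recurs less often. Among the translation genes, mouse 2 lay a median of 0.12 below mice 1 and 3 for the 9 genes with a share of up to 10% (median difference -0.12), against -0.79 for 30 genes with a share between 10% and 50% and -1.65 for 31 genes above 50%. Over all genes these medians were -0.28, -1.03 and -1.43. Results are therefore given with the values as deposited and, where it matters, without mouse 2 or with its arrays aligned to those of mice 1 and 3 by signal.

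**Figure D1:**
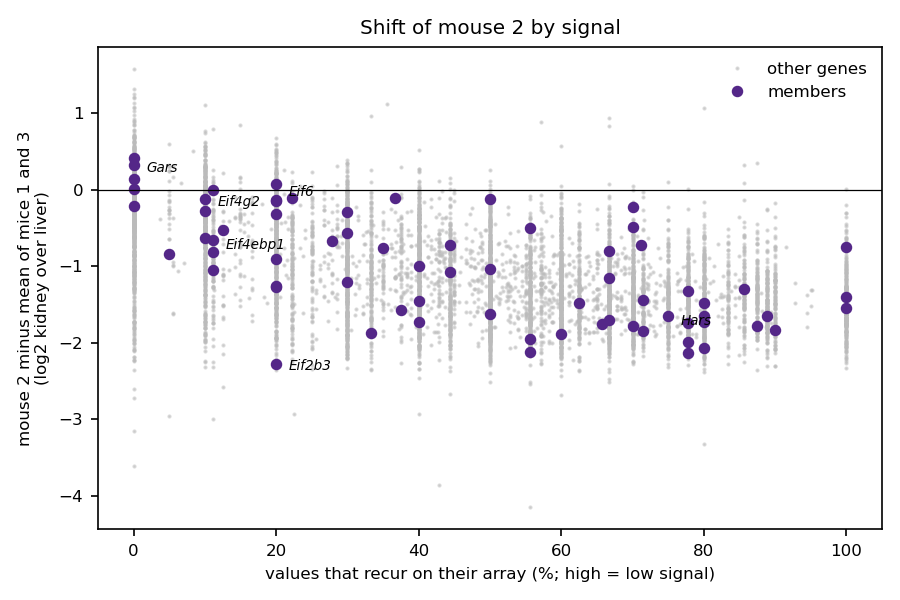
Difference of mouse 2 from the mean of mice 1 and 3 (vertical axis, log2 kidney over liver) against the percentage of values recurring exactly within an array (horizontal axis, high values taken as a sign of low signal). Translation genes are purple points and other genes grey points. Differences run from 0.42 to -2.28 among the translation genes, and the median falls from -0.12 at shares of up to 10% to -1.65 at shares above 50%.

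Most translation genes were not called different between the organs, and those that were differed by less than 4-fold. Of the 72 genes, 70 had values in at least 2 mice per organ and were tested. Of these, 4 were called higher in kidney (5.71%, against 5.47% of all 9047 genes tested) and 3 higher in liver (4.29%, against 8.71%), by limma with Benjamini-Hochberg adjusted p under 0.05. Together this was 10% of the translation genes and 14.2% of all genes. The genes higher in kidney were Eif2d, Iars2, Eif4g2 and Eif6, and those higher in liver were Eif4ebp1, Mars1 and Eif3k. The median of the 70 genes was -0.39, beside -0.48 over all genes. Their quartiles were -0.68 and -0.03, beside -0.76 and -0.08 over all genes. A difference over 2-fold was seen in 7 translation genes (10%, against 15.1% of all genes) and one over 4-fold in 0 (against 3.88%). The median SE was 0.29 in both sets.

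**Figure D2:**
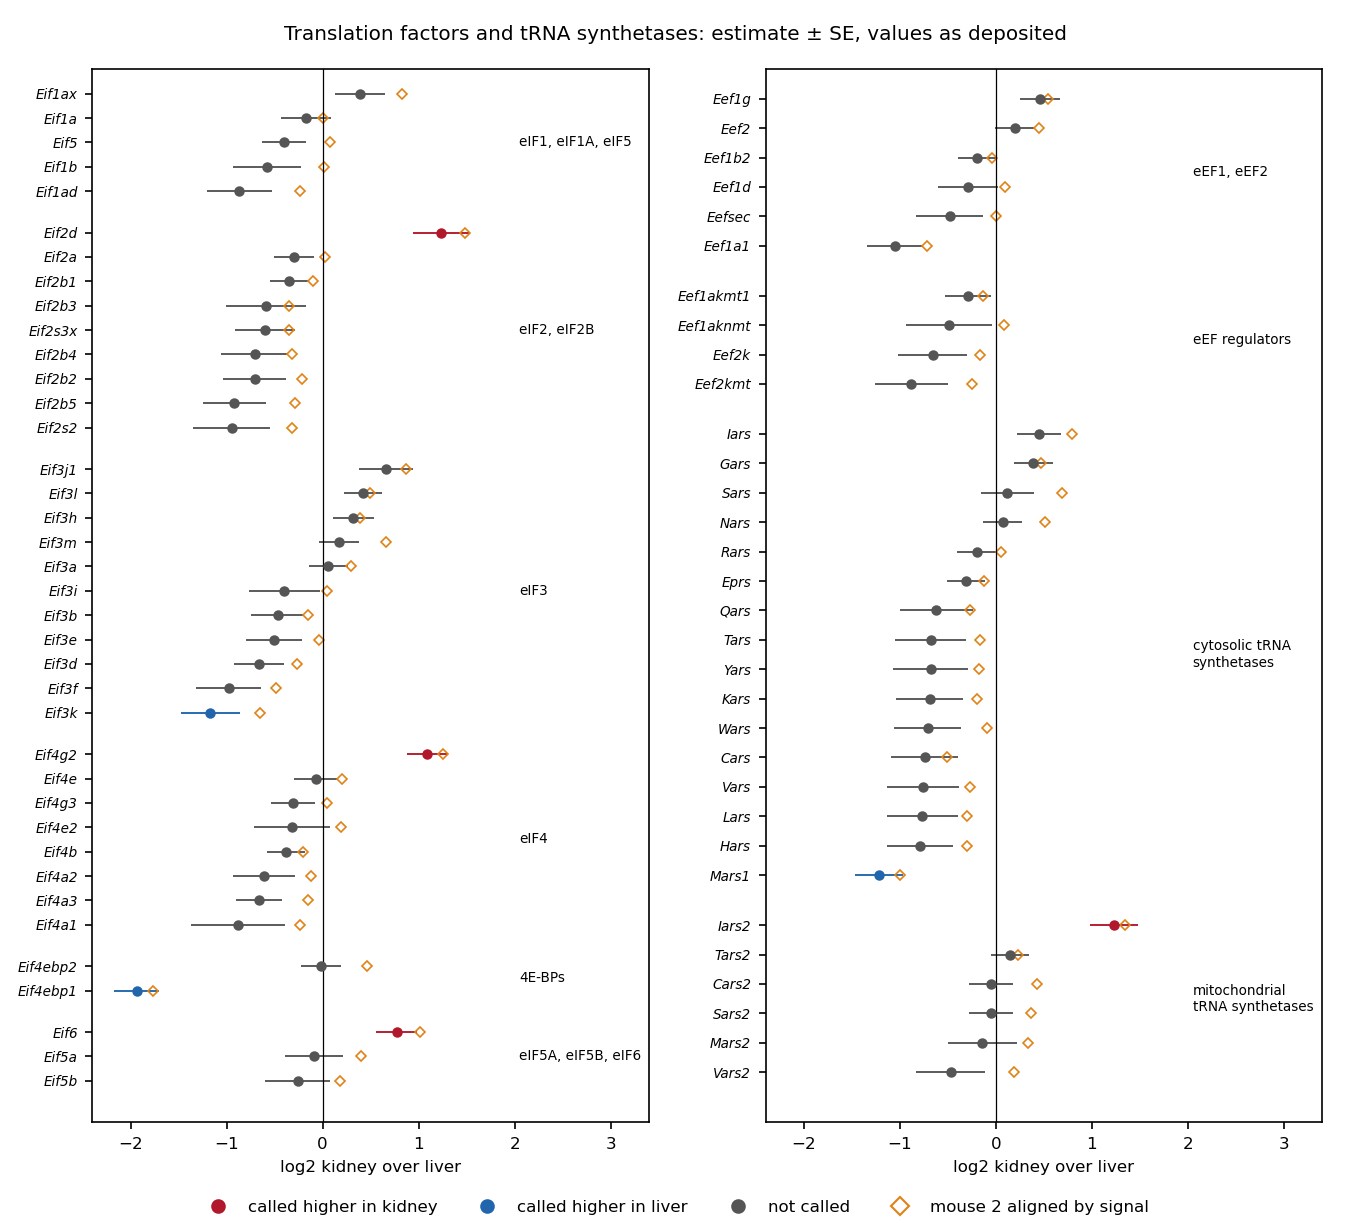
Log2 kidney over liver of the 70 tested translation genes (horizontal axis), grouped by role, as estimate ± SE over 6 averages of mouse and organ with values as deposited, and as open diamonds with mouse 2 aligned by signal. The 7 called genes are coloured, and the diamonds lie to the right of most filled points, with medians of 0.00 and -0.39.

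The balance of the calls depended on mouse 2. With its arrays aligned by signal, 15 translation genes were higher in kidney (21.4%, against 20.3% of all genes) and 6 higher in liver (8.57%, against 17.2%), in all 30% of them against 37.5% of all genes, and the medians moved to 0.00 for the translation genes and -0.04 for all genes. Without mouse 2, 55 translation genes could be tested, and 35.8% of all genes tested were called. Of the 55, 8 were higher in kidney (14.5%, against 20.1%) and 3 higher in liver (5.45%, against 15.7%). The fit without mouse 2 rests on mice 1 and 3 alone. Both averages of each mouse enter it as separate values without a block, so its p-values tend to be too small. The 7 genes called as deposited were also among the 21 called after alignment. Both averages of a mouse come from the same animal, which the fit as deposited leaves out. With the mouse as a replicate block, Eif4ebp1 alone of the 70 was called (1.43%, against 7.43% of all genes, 2.77% higher in kidney and 4.65% higher in liver). With the block and the alignment together, 8 translation genes were higher in kidney (11.4%, against 14.8%) and 3 higher in liver (4.29%, against 10.7%), and 25.5% of all genes were called. These 11 were all among the 21, and they included 6 of the 7.

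The largest difference of the set was in an inhibitor of initiation. Eif4ebp1 encodes 4E-BP1, which binds eIF4E and keeps it from the cap-binding complex until mTORC1 phosphorylates it. Its values were -1.59, -2.38 and -1.64 on the kidney arrays of mice 1, 2 and 3 and -1.54, -2.37 and -2.09 on their liver arrays. All 6 were far below 0, and those of mouse 2 were the lowest. The estimate was -1.94 (SE 0.23, n = 3 mice per kind of array), a 3.82-fold higher level in liver (adjusted p = 0.00058). It was called in 18 of 18 alternative analyses, with adjusted p = 0.000521 under the replicate block and -1.72 (adjusted p = 9.2e-05) without mouse 2. Alternatives that change only filters, probes or symbols refit the same 6 averages of this gene and could not change its estimate.

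The other measured inhibitor of this family was not called. Eif4ebp2, whose protein binds eIF4E in the same way, had values between -0.40 and 0.40 and an estimate of -0.02 (SE 0.21, adjusted p = 0.933). Alignment of mouse 2 gave 0.46 (adjusted p = 0.0783), so its sign depended on that mouse. The difference between the 2 genes was not tested.

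**Figure D3:**
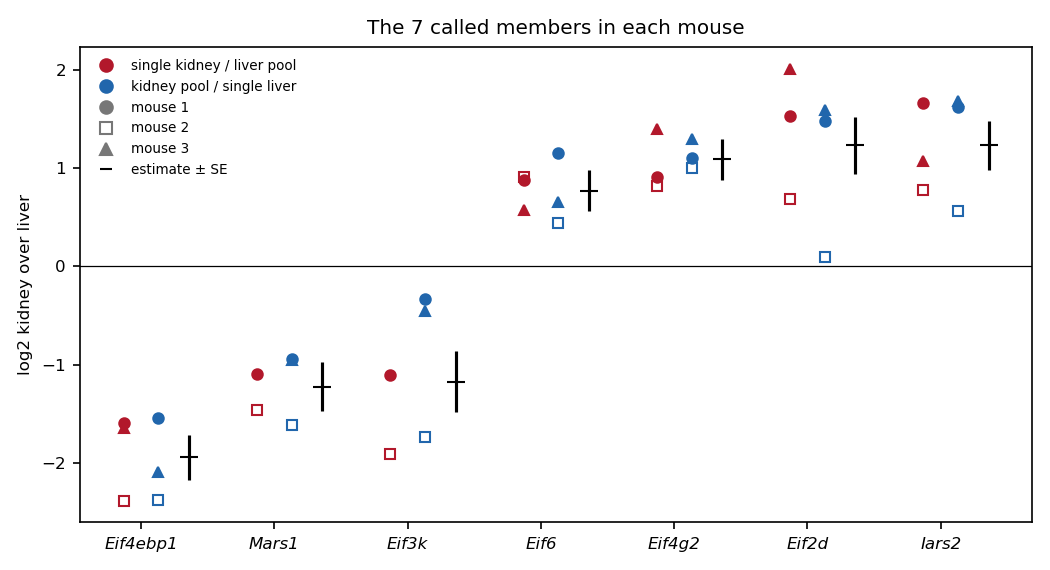
Log2 kidney over liver (vertical axis) of the 7 called genes, with a point for each average of mouse and organ: red for a single kidney over the liver pool, blue for the kidney pool over a single liver, circles for mouse 1, open squares for mouse 2 and triangles for mouse 3, and bars for the estimate ± SE. Each gene's points lie on one side of 0, and Eif4ebp1 lies farthest from it, between -2.38 and -1.54.

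Among the cap-binding, helicase and scaffold factors of the eIF4 group, 1 of 8 was called, higher in kidney. Eif4g2 encodes DAP5, a scaffold related to eIF4G that lacks the site for eIF4E and serves initiation independent of the cap. Its values were 0.91, 0.82 and 1.40 on kidney arrays and 1.10, 1.00 and 1.30 on liver arrays. The 6 values spanned a narrow range and mouse 2 differed from the other mice by only -0.27. The estimate was 1.09 (SE 0.21), a 2.13-fold higher level in kidney (adjusted p = 0.00832). The call was lost with the replicate block (adjusted p = 0.147), without mouse 1 (0.133) and without mouse 3 (0.169), and held without mouse 2 (1.18, adjusted p = 0.000528).

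The other 7 genes of the group lay between -0.88 and -0.07 and were not called as deposited. Without mouse 2, Eif4e2, for a relative of the cap-binding protein, changed from -0.32 to 0.39 and was called higher in kidney (adjusted p = 0.0343), while with mouse 2 aligned it was 0.19 (0.343). The helicase genes Eif4a1, Eif4a2 and Eif4a3 were at -0.88 (SE 0.49), -0.61 (SE 0.32) and -0.66 (SE 0.24). Eif4a1 was the least even, with 1.17 on the liver arrays of mouse 3 against -0.61 on those of mouse 1 and -2.27 on those of mouse 2. Eif4b, a cofactor of the helicase, was negative in all 6 averages (-0.61 to -0.25), with an estimate of -0.38 (SE 0.20, adjusted p = 0.19). It was called higher in liver without mouse 2 (-0.37, adjusted p = 0.0434) but not with mouse 2 aligned (-0.21, 0.243). For Eif4e, which encodes the cap-binding protein itself, 2 probes disagreed. The probe with no recurring values gave 0.28 (SE 0.19) and the one with 55.6% recurring values gave -0.43 (SE 0.30), with neither called. The 2 probes of Eif4g3 gave 0.01 and -0.79 in the same manner, at 20.0% and 50.0% recurring values.

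Of 9 genes in the eIF2 and eIF2B group, 1 was called. Eif2d encodes a factor that is no subunit of eIF2 but can place tRNA on the small subunit without it and takes part in ribosome recycling. Its values were 1.53, 0.69 and 2.01 on kidney arrays and 1.48, 0.10 and 1.59 on liver arrays. Mice 1 and 3 were at 1.48 or above on both kinds of array, and mouse 2 lay 1.26 lower (difference -1.26). The estimate was 1.23 (SE 0.29), a 2.35-fold higher level in kidney (adjusted p = 0.0227). Without mouse 2 it was 1.65 (adjusted p = 9.2e-05), and with mouse 2 aligned 1.48 (adjusted p = 2.6e-05). The call was lost with the replicate block (adjusted p = 0.0791), without mouse 1 (0.198) and without mouse 3 (0.183).

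The guanine exchange factor eIF2B, which reloads eIF2 with GTP and is the step blocked by phosphorylated eIF2, was covered by all 5 subunit genes. Their estimates were -0.35 (Eif2b1), -0.71 (Eif2b2), -0.59 (Eif2b3), -0.71 (Eif2b4) and -0.92 (Eif2b5), with adjusted p between 0.105 and 0.294. With mouse 2 aligned, the 5 estimates lay between -0.35 and -0.10 and none was called, with the lowest adjusted p at 0.106. The eIF2 subunit genes Eif2s2 (-0.95, SE 0.40) and Eif2s3x (-0.60, SE 0.31) were not called either. Of the kinases that phosphorylate eIF2, Eif2ak2, which encodes PKR, had a single probe with too few values to test: -0.83 on the kidney arrays of mouse 2, and -0.69 and -0.92 on the liver arrays of mice 1 and 3.

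In the eIF3 complex, the largest initiation factor, 1 of 11 measured subunits was called. Eif3k encodes a peripheral subunit that yeast lacks. Its values were -1.10 and -1.90 on the kidney arrays of mice 1 and 2, with none for mouse 3, and -0.33, -1.73 and -0.45 on liver arrays. The values of mouse 2 were the lowest of each kind. The estimate was -1.17 (SE 0.31), a 2.25-fold higher level in liver (adjusted p = 0.046). After alignment it was -0.65 (adjusted p = 0.00511). The replicate block gave adjusted p = 0.179, block and alignment together 0.0508, and leaving out mouse 3 gave 0.122. Without mouse 1 or mouse 2 too few values were left to test it.

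The other 10 subunits lay between -0.98 and 0.66 and were not called as deposited. Eif3l, the partner of eIF3k in its submodule, was positive in all 6 averages (0.11 to 0.82) with an estimate of 0.42 (SE 0.20, adjusted p = 0.173) and no recurring values. Eif3h, also without recurring values, was at 0.32 (SE 0.21). Eif3j1, whose protein joins the complex loosely, had 1.26, 0.34, 0.95, 0.05 and 0.57 in its 5 averages and an estimate of 0.66 (SE 0.28, adjusted p = 0.139). Eif3f was negative in all 6 averages (-2.32 to -0.19), with an estimate of -0.98 (SE 0.34, adjusted p = 0.0913). After alignment of mouse 2, Eif3l (0.49, adjusted p = 0.0109), Eif3j1 (0.87, 0.00154) and Eif3m (0.66, 0.045) were called higher in kidney. Eif3f (-0.49, 0.00755) and Eif3k were called higher in liver. For Eif3m the aligned estimate lay above all 6 averages as deposited (-0.34 to 0.51). Its mouse 2 differed from mice 1 and 3 by only -0.22, at 70.0% recurring values. Without mouse 2, Eif3l (0.41, adjusted p = 0.0317) and Eif3f (-0.41, 0.027) passed as well, and Eif3m (0.25, 0.234) did not. The core subunit genes Eif3a and Eif3b were at 0.06 (SE 0.20) and -0.47 (SE 0.28) and passed under neither treatment.

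Of the 5 genes for eIF1, eIF1A, eIF5 and their relatives, which keep the scanning ribosome accurate at the start codon, none was called as deposited. They lay between -0.87 (Eif1ad, SE 0.34) and 0.39 (Eif1ax, SE 0.26). Eif1ax, a gene for eIF1A on the X chromosome, had 0.74, -0.14 and 0.59 on kidney arrays and 0.98, -0.45 and 0.65 on liver arrays. Mice 1 and 3 were positive on both kinds, and mouse 2 was negative. Its estimate was 0.83 with mouse 2 aligned (adjusted p = 0.000585) and 0.74 without mouse 2 (adjusted p = 0.00296). The related gene Eif1a was at -0.17 (SE 0.26). A cDNA probe can bind near-identical relatives, so values of such pairs are not certain to be specific.

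Of the 3 genes for eIF5A, eIF5B and eIF6, 1 was called. Eif6 encodes a factor that binds the large subunit and keeps it from joining early. Its values were 0.88, 0.91 and 0.57 on kidney arrays and 1.15, 0.44 and 0.66 on liver arrays. All 6 were positive, and mouse 2 differed from the others by -0.14. The estimate was 0.77 (SE 0.21), a 1.70-fold higher level in kidney (adjusted p = 0.0449), close to the threshold. The replicate block gave adjusted p = 0.304, leaving out mouse 1 gave 0.243, leaving out mouse 3 gave 0.192, and leaving out mouse 2 gave 0.00341. Eif5b, the GTPase of subunit joining, was at -0.26 (SE 0.34), and its sign turned with mouse 2 aligned (0.18). Eif5a, the factor that carries hypusine, was at -0.09 (SE 0.30), and at 0.40 (adjusted p = 0.0482) with mouse 2 aligned.

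No elongation factor or regulator was called as deposited among 10 tested of 11. The gene nearest to the threshold was Eef1a1, which encodes the abundant carrier of aminoacyl-tRNA. Its values were -1.36 and 0.06 on the kidney arrays of mice 2 and 3, with none for mouse 1, and -1.41, -1.70 and -1.20 on liver arrays. The liver arrays were even and the kidney arrays were not, and the value of mouse 3 rested on a single hybridisation. The estimate was -1.05 (SE 0.29, adjusted p = 0.0547), and -0.72 with mouse 2 aligned (adjusted p = 0.00611). Eef1a2, the form of muscle and neurons, had values on the liver arrays of mice 1 and 3 alone (-0.23 and 0.32) and was not tested.

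Within the exchange complex eEF1B, which reloads eEF1A, the 3 subunit genes lay between -0.29 and 0.46 with none called. Eef1g was positive in all 6 averages (0.07 to 0.75), with an estimate of 0.46 (SE 0.21, adjusted p = 0.155), and passed with mouse 2 aligned (0.54, adjusted p = 0.0202). Eef1b2 was at -0.20 (SE 0.20) and Eef1d at -0.29 (SE 0.31). The probes for the translocase Eef2 disagreed. The probe with no recurring values gave 0.82 (SE 0.28, adjusted p = 0.0879), and the one with 44.4% recurring values gave -0.50 (SE 0.31, adjusted p = 0.25), so the average of 0.20 describes neither. The average was 0.45 with mouse 2 aligned, just under the threshold (adjusted p = 0.0494), and 0.24 without mouse 2 (0.249). Eefsec, the factor for selenocysteine, was at -0.48 (SE 0.35). The 4 regulators, including eEF2 kinase (Eef2k, -0.66, SE 0.36) and the methyltransferase genes Eef2kmt (-0.88, SE 0.38) and Eef1akmt1 (-0.29, SE 0.24), were all negative as deposited. After alignment they lay between -0.25 and 0.08, and 0 of 4 were called.

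Of 16 cytosolic synthetases, 1 was called, higher in liver. Mars1 charges both initiator and elongator tRNA with methionine. Its values were -1.09 and -1.46 on the kidney arrays of mice 1 and 2, with none for mouse 3, and -0.94, -1.61 and -0.95 on liver arrays. All 5 were negative, with those of mouse 2 the lowest. The estimate was -1.22 (SE 0.25), a 2.33-fold higher level in liver (adjusted p = 0.017). It was also called with mouse 2 aligned (adjusted p = 0.000295) and with block and alignment (0.00534), but not with the block alone (0.177). Leaving out mouse 3 gave adjusted p = 0.103, and without mouse 1 or mouse 2 too few values were left to test it.

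Mars1 belongs to the multisynthetase complex, of which 7 synthetase genes were measured. The others were Iars (0.45, SE 0.23), Rars (-0.20, SE 0.21), Eprs (-0.31, SE 0.20), Qars (-0.62, SE 0.38), Kars (-0.69, SE 0.35) and Lars (-0.77, SE 0.37), with none called. Thus genes of enzymes that sit in the same complex ran from -1.22 to 0.45. Iars, for cytosolic isoleucine charging, had 0.15, 0.22 and 0.80 on kidney arrays and 0.81, -0.06 and 0.79 on liver arrays. It was called higher in kidney with mouse 2 aligned (0.79, adjusted p = 0.00233) and without mouse 2 (0.64, adjusted p = 0.0116). The 3 probes of Eprs, which charges both glutamate and proline tRNA, gave -0.56, -0.28 and -0.05.

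Outside the complex, Gars, the glycine enzyme, had the same sign in every average. Its values were 0.35, 0.47 and 0.31 on kidney arrays and 0.50, 0.51 and 0.22 on liver arrays, with no recurring values. All 6 were positive, but the estimate of 0.39 (SE 0.20) did not pass as deposited (adjusted p = 0.178). The aligned estimate was 0.47 (adjusted p = 0.0137), and without mouse 2 it was 0.35 (adjusted p = 0.0512). Cars, Hars, Tars, Vars and Yars lay between -0.79 and -0.68 as deposited, with shares of recurring values between 75% and 90%. Without mouse 2 these 5 lay between -0.45 and 0.01, and none passed. After alignment Cars (-0.51, adjusted p = 0.0483) was called higher in liver and Sars, the serine enzyme (0.69, adjusted p = 0.0447), higher in kidney, both just under the threshold.

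Wars, the tryptophan enzyme, had organ ratios that lay apart by kind of array. Its values were -0.40 and 1.09 on the kidney arrays of mice 2 and 3, with none for mouse 1, against -1.22, -2.68 and -1.37 on liver arrays. No kidney array value overlapped with a liver array value. The difference between array kinds was 2.10 (SE 0.70) with an unadjusted p of 0.018 but an adjusted p of 1.0. As deposited, 0 translation genes and 0 of all genes were called for this difference, and 1 translation gene and 17 of all genes (0.188%) had an unadjusted p under 0.05. The aligned difference was 2.40 (SE 0.25, adjusted p = 0.0251), and Wars was 1 of 4 genes called (0.0442% of all genes, with 2.32% at an unadjusted p under 0.05). The gene's average over both kinds, -0.71 (SE 0.35), covers 4 negative values and 1 positive value. The positive value, 1.09, rested on a single hybridisation, and the probe's share of recurring values was 71.4%.

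Of 6 mitochondrial synthetases, 1 was called, higher in kidney. Iars2 charges mitochondrial tRNA with isoleucine. Its values were 1.66, 0.78 and 1.07 on kidney arrays and 1.62, 0.56 and 1.68 on liver arrays. All 6 were positive, and those of mouse 2 were the lowest. The estimate was 1.23 (SE 0.25), a 2.35-fold higher level in kidney (adjusted p = 0.0113). Both of its probes were called on their own, at 1.08 (adjusted p = 0.0439) and 1.38 (adjusted p = 0.00734). The call held without mouse 2 (1.51, adjusted p = 0.000197) and was lost with the block (0.0806), without mouse 1 (0.182) and without mouse 3 (0.142). A further 3 probes whose annotation lists Iars2 together with Rab3gap2 gave means of -0.47, -0.44 and -0.66 over their averages. They lay between -0.28 and 0.32 in mice 1 and 3, and did not show the excess.

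The other 5 mitochondrial synthetases were Tars2 (0.15, SE 0.20), Sars2 (-0.05, SE 0.23), Cars2 (-0.05, SE 0.23), Mars2 (-0.14, SE 0.36) and Vars2 (-0.47, SE 0.36). With mouse 2 aligned they lay between 0.19 and 0.43, and Cars2 was called (0.43, adjusted p = 0.0432). The median of the mitochondrial enzymes was -0.05 and that of the cytosolic enzymes -0.68 as deposited, and 0.35 and -0.18 with mouse 2 aligned. The difference between both lists was not tested. For methionine, the mitochondrial gene Mars2 had values of 0.76, -1.06, 0.33, -1.01 and 0.31 where Mars1 had 5 negative values. For isoleucine, both the mitochondrial Iars2 and the cytosolic Iars had positive estimates.

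Promoter sequences of the called genes were taken from RefSeq (GRCm38.p6), to show the DNA in front of genes that differed between organs. The 250 bases before the start of transcription are given for the 4 of the 7 that matched the promoter table, Eif2d, Eif3k, Iars2 and Mars1. The others are Eif4ebp1, Eif4g2 and Eif6. Each is written 5′ to 3′ on the strand of the gene, with capitals for matches to CACGTG (an E-box, bound by MYC and related factors) or CCAAT (bound by NF-Y; ATTGG on the opposite strand). Eif2d lies at chr1:131152957-131153206 (plus strand), Eif3k at chr7:28981889-28982138 (minus strand), Iars2 at chr1:185329402-185329651 (minus strand) and Mars1 at chr10:127311787-127312036 (minus strand).
Eif2d: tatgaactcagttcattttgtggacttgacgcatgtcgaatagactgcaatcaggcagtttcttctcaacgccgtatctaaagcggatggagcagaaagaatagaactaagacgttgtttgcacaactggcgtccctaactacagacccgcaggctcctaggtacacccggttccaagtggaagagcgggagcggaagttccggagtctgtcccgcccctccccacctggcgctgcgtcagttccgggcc
Eif3k: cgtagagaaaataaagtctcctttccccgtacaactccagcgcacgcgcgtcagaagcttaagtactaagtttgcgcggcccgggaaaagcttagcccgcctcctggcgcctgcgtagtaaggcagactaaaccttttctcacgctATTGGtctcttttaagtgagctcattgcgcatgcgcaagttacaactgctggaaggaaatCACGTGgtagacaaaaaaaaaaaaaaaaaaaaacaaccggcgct
Iars2: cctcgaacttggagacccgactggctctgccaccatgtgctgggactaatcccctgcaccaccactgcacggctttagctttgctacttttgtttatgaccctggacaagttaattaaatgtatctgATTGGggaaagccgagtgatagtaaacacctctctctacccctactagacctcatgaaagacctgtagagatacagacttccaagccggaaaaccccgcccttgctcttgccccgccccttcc
Mars1: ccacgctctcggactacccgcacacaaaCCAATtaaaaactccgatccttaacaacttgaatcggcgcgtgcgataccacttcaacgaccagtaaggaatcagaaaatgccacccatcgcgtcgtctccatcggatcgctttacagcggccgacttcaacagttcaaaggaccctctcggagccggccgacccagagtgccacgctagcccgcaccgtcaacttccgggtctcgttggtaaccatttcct

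The E-box of Eif3k begins 44 bases before the start, and its CCAAT match 104 bases before. The CCAAT matches of Iars2 and Mars1 begin 123 and 222 bases before the start, and the window of Eif2d held neither motif. In all, 54 of the 72 genes matched the table, with 65 promoters. With both strands searched over this window, CACGTG was found in 12 of the 65 (18.5%), against 6.02% of all 32851 promoters. These 12 belong to 10 genes, with 3 of them listed for Eif5a, and promoters of the same gene can overlap. CCAAT was found in 20 (30.8%), against 33.8%. TGATGNAA, the composite element bound by ATF4 with a C/EBP factor, was found in 4 (6.15%), against 3.45%, in promoters of Eef2k, Eif2s3x, Gars and Tars. Of the 15 promoters of synthetases, 10 held CCAAT, 1 CACGTG and 2 TGATGNAA. None of these motifs contains another. The median GC content was 61.2% in these promoters and 52.4% over all promoters. A match describes letters in the window and not binding.

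Genes that work with the translation factors but do not carry these names were described from 7 lists, to be read against the 14.2% of all genes called as deposited. Of 7 tested genes for termination and ribosome recycling, 1 was higher in kidney: Pelo, which rescues stalled ribosomes, with values between 0.40 and 1.20 and an estimate of 0.89 (SE 0.20, adjusted p = 0.0206). Its partner Hbs1l was at -0.87 (SE 0.38) and not called. Of 4 tested poly(A)-binding proteins and helicases, 1 was higher in kidney: Ddx3x, an RNA helicase of long leader sequences, at 0.84 (SE 0.21, adjusted p = 0.0324). Pabpc1, the main poly(A)-binding protein, was at 0.08 (SE 0.21). None of these calls held with the replicate block (adjusted p = 0.261 for Pelo and 0.279 for Ddx3x).

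Of 5 tested synthetase partners outside the naming rule, Aimp1, a scaffold of the multisynthetase complex, was higher in liver, with values between -1.02 and -0.72 and an estimate of -0.95 (SE 0.23, adjusted p = 0.0344). The aligned estimate was -0.38 (adjusted p = 0.272), and the replicate block gave 0.286. As deposited, the averages of mouse 2 (-1.02 and -0.97) lay near those of mice 1 and 3 (-1.01 to -0.72). Of 6 mitochondrial translation factors, 0 were called, from -1.06 (Mtrf1) to 0.44 (Gfm1). Gfm1, a mitochondrial elongation factor, was called higher in kidney with mouse 2 aligned (0.93, adjusted p = 0.00763) and without mouse 2 (0.57, 0.0273). Tufm, the mitochondrial counterpart of eEF1A, was called higher in liver without mouse 2 (-0.43, adjusted p = 0.0335) and not with it aligned (-0.21, 0.299). Of 10 genes that signal to translation, 0 were called, from -1.03 (Mtor) to 0.12 (Rptor). As deposited, the kinase Mtor, whose complex phosphorylates 4E-BP1, did not pass (adjusted p = 0.1). The aligned estimate of Mtor was -0.39 (adjusted p = 0.0475).

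Genes downstream of eIF2 phosphorylation were called in both directions. Of 11 genes of the integrated stress response, 1 was higher in kidney and 2 higher in liver (27.3% called, against 14.2% of all genes). Chac1, an enzyme that degrades glutathione, had values between 0.75 and 1.77 and an estimate of 1.23 (SE 0.28, adjusted p = 0.0245). Trib3, a pseudokinase that feeds back on the pathway, had values between -1.61 and -0.75 and an estimate of -1.17 (SE 0.22, adjusted p = 0.0083). Phgdh, the first enzyme of serine synthesis, was at -1.11 (SE 0.30, adjusted p = 0.0415). Atf4, the transcription factor at the head of the response, was at -0.41 (SE 0.28, adjusted p = 0.272). With mouse 2 aligned, 4 were higher in kidney (Chac1, Sesn2, Ddit4 and Psat1) and 4 higher in liver (Ddit3, Trib3, Asns and Phgdh), each 36.4% of the list, against 20.3% and 17.2% of all genes in that setting. With the replicate block and values as deposited, 0 of the 11 passed, and neither did Dohh, described next. Psat1, which acts one step after Phgdh in serine synthesis, was at 1.65 in that alignment (adjusted p = 5.63e-05) while Phgdh was at -0.71 (0.00143).

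Factors that modify translation proteins or make selenoproteins gave 2 calls of 6, 1 in each direction (33.3%, against 14.2% of all genes). Dohh, which completes hypusine on eIF5A, had values between 0.85 and 1.27 on 5 averages and an estimate of 1.03 (SE 0.23, adjusted p = 0.0257), while Dhps, the enzyme of the step before, was at -0.46 (SE 0.21). Sephs2, which makes the selenium donor for selenocysteine, had -1.10, -1.86 and -1.14 on kidney arrays and -1.30, -1.69 and -1.58 on liver arrays. All 6 lay below -1, without recurring values. Its estimate was -1.44 (SE 0.22, adjusted p = 0.00231), and it held with the replicate block (adjusted p = 0.0233) as Eif4ebp1 did.

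**Figure D4:**
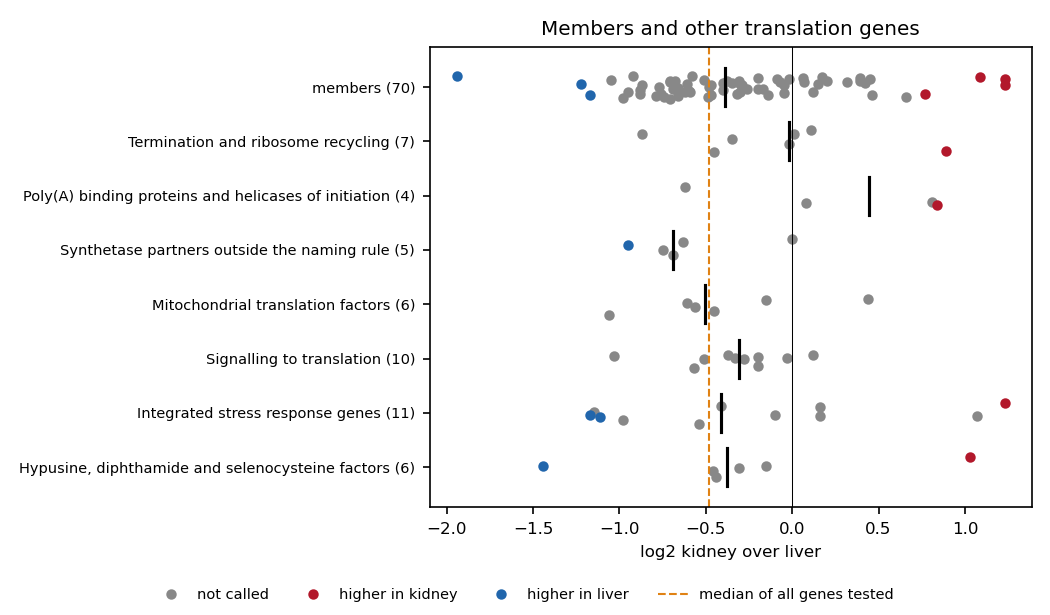
Log2 kidney over liver (horizontal axis, values as deposited) of the translation genes and of 7 lists of related genes, with the number tested in brackets, a point for each gene, red where called higher in kidney, blue where called higher in liver, a black bar at each list's median and a dashed line at the median of all genes tested (-0.48). Called genes lie at or beyond 0.77 on the kidney side and at or beyond -0.95 on the liver side, and medians run from -0.69 to 0.44.

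Precision was set by 3 mice per kind of array and by how far they spread. The median SD of a translation gene was 0.233 between hybridisations of the same RNA and 0.624 between mice. Between mice 1 and 3 alone it was 0.189. The spreads between mice are of averages of up to 3 arrays, and the spread between hybridisations is of single arrays. They therefore do not compare directly. Over all genes the values were 0.232, 0.739 and 0.202. Of the 54 translation genes with all 6 averages, 13 had the same sign in each, 7 positive (Eef1g, Eif2d, Eif3l, Eif4g2, Eif6, Gars and Iars2) and 6 negative (Eif3d, Eif3f, Eif4b, Eif4ebp1, Eprs and Kars). Among the negative ones, Kars lay between -0.27 and 0.00 in mice 1 and 3, and single probes of Eprs had averages of both signs. The share over all genes was not counted, so whether 13 of 54 is usual is not known. The shift of mouse 2 lowers values on both kinds of array, which bears on both counts. Calls were fewer where more values recurred, over all genes too. As deposited, 2 of the 9 translation genes with a share of up to 10% were called (22.2%, against 52.6% of all genes in that class), 5 of the 30 in the middle class (16.7%, against 12.6%) and 0 of the 31 above 50% (against 2.56%).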

How the data were processed

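Per the labels, the authors made the deposited log2 ratios of the 2 channels from background-subtracted mean intensities scaled to a median ratio of 1. The labels name the GenePix 4000A scanner and GenePix Pro 3.0, and do not state the base of the log. The arrays of mouse 2 depart from that scaling. As log2 kidney over liver, their medians ran from -1.49 to -1.19 on kidney arrays and from -1.35 to -1.32 on liver arrays. The cause of this conflict was not tested. Labelling used 20 µg of total RNA. The base was read from the values: 140 of 144 spacings matched log2 of whole-number ratios (no number above 10, tolerance 0.0001), 16 matched log10 and 0 the natural log. Dye assignment is not given in the sources used here, and raw intensities were not used.

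Of 20419 probes (15480 to 19432 with a value per array), 11723 had 1 symbol, 806 several and 7890 none. Symbols were updated to RefSeq where matched (11590, with 133 kept as annotated). Genes, the mean of their probes, were fitted on 6 averages of mouse and organ with limma 3.58.1 (R 4.3.3), with the mean of both array kinds as the organ difference and a term for array kind, where at least 2 mice per organ had values. P-values are two-sided, with Benjamini-Hochberg adjustment over all genes at 0.05. The fit was tested on simulated data. No conclusion is drawn from that test on how the fit handles the shift of mouse 2 or averages from the same animal. The pools give no spread.

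Mouse numbers mark the same animal in both organs, per the labels. As single sample over pool, deviations of a mouse correlated between organs at -0.569, -0.787 and -0.565 for mice 1, 2 and 3 (over 7514 genes, which are not independent replicates), and positively as kidney over liver. A fit without the block thus tends to give p-values that are too small, also with mouse 2 aligned or a mouse left out, and the blocked fit was an alternative. In it limma drew every variance to one value, so the SE was 0.455 for genes with all averages. The alignment of mouse 2 subtracts a running fit of its difference from mice 1 and 3 on the share of recurring values. A gene is thus moved by the amount usual for its share, also where its own values in mouse 2 differed little. As it is fitted to the values tested, its SE leave out its own error.

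Genes named are those called, the highest and lowest of each role list, and those called after centring. Others are named to complete a complex, family or list, with their values seen. The members and lists were chosen with earlier results of these data known. Figures were drawn with matplotlib 3.10.9.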

Additional observations from a re-analysis of the deposited data

How the results depend on the processing

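Over all genes, 1283 were called as deposited, 2873 with arrays centred, 3390 with mouse 2 aligned by signal, 6507 after quantile normalization, 455 on kidney arrays alone, 831 on liver arrays alone, 672 with the mouse as a replicate block, 2305 with block and alignment, and 467 (mouse 1), 2713 (mouse 2) or 530 (mouse 3) with a mouse left out. Translation genes higher in kidney numbered 4 as deposited, 9 centred, 15 aligned, 7 after quantile normalization, 0 with the replicate block, 7 with block and centring, 8 with block and alignment, 0 on kidney arrays alone, 1 on liver arrays alone, and 0 to 8 with a mouse left out. Those higher in liver numbered 3 as deposited, 6 aligned, 38 after quantile normalization, 1 with values in all 6 averages, 1 with the replicate block, 1 with block and centring, 1 on kidney arrays alone, and 1 to 3 with a mouse left out. With arrays centred, 12.9% of the translation genes were higher in kidney (against 19.3% of all genes) and 5.71% higher in liver (against 12.4%). The 7 and 38 after quantile normalization stand beside 6507 calls over all genes. The split of those calls by direction was not counted, so whether 7 and 38 are usual is not known. Where no share of all genes by direction is given, a count is not to be read as a result about these genes. The difference between array kinds was called for 0 as deposited and 1 aligned (Wars). Of 380 comparisons over 23 named genes and 18 alternatives, 294 kept direction and side of the threshold, 38 gained a call, 31 lost one and 17 changed sign. The 7 called genes changed sign in 0 of 120. Alternatives that change only filters, probes or symbols refit the same averages for many genes, so these comparisons are not independent. Sign changes were Eif4ebp2 (0.43 centred and with block and centring, 0.46 aligned and with block and alignment, 0.03 on liver arrays alone, 0.14 without mouse 2), Eif5b (0.19 centred and with block and centring, 0.18 aligned and with block and alignment, 0.28 without mouse 2), Vars2 (0.12 centred, 0.19 aligned, 0.13 with block and centring, 0.21 with block and alignment) and Eef1akmt1 (0.16 centred and with block and centring). The cause was not tested. Alignment and block with alignment were chosen with these data known. A share of recurring values above 50%, taken here as a sign of low signal, was found for 31 of 70 genes. Signal itself was not measured, and its part in the calls was not tested.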

Other observations

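Probes whose annotation lists a translation gene together with other genes were left out of the 72 and numbered 10. They cover 3 genes that no probe of its own measured among those used here. A probe listed for Aars and Exosc6 had a mean of -0.71 over its averages, with -0.21 to 0.07 in mice 1 and 3 and -1.65 and -1.72 in mouse 2. A probe listed for Eif4h and 5 other genes had a mean of -1.08, with -0.65 to 0.02 in mice 1 and 3 and -1.97 and -2.26 in mouse 2. A probe listed for Eif4ebp3, another inhibitor of eIF4E, with 2 other genes had a mean of -1.03 with -0.68 to -0.44 in mice 1 and 3 and -1.59 and -1.79 in mouse 2. Which of the listed genes these probes report was not tested. Probes that list Eef1a1 with other genes gave means of 0.07, -0.05 and -0.83 over the 6 averages, where the probe of Eef1a1 alone gave -1.05, and a probe listed for Eif5b and Rev1 gave -0.20.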
